A study of Mus musculus with 4 samples.

Results

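The fibrillar collagens I, III and V were followed in tibialis anterior, a muscle at the front of the shin, through the genes of their alpha chains: Col1a1, Col1a2, Col3a1, Col5a1, Col5a2 and Col5a3. The members were all probe sets whose only gene symbol in the array annotation is one of these 6 names. They came to 14 probe sets, and the 6 genes stand among 18193 genes with such a probe set. The study placed 1 Affymetrix whole-genome mouse array in each of 4 groups, so no group had replicates. These were mdx/MMP-2-/- mice at 3 months, mdx mice at 3 months, mdx/MMP-2-/- mice at 1 month and mdx mice at 1 month, all on C57BL/6J. All 4 groups lack dystrophin, which makes mdx a mouse model of Duchenne muscular dystrophy, and 2 of them also lack matrix metalloproteinase 2 (MMP-2). No array of muscle with dystrophin was part of the series, and whether an array held RNA of 1 animal or of a pool is not given in the sources used here.

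Fibrillar collagens are secreted as procollagens of 3 chains wound into a triple helix, trimmed outside the cell and packed into staggered fibrils. Type I, built from alpha-1 and alpha-2 chains, gives tendon and the muscle's connective tissue their tensile strength. Type III, built from the Col3a1 chain alone, forms thinner fibrils in pliable tissue and early scars. Type V is a minor component inside the fibril that starts its assembly and limits its width. In dystrophic muscle fibroblasts deposit these collagens between the fibres, and MMP-2 is a gelatinase that acts on denatured collagen and on basement membrane.

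With 1 array per group none of the differences below could be tested against a spread between replicates, and "higher" and "lower" describe the arrays. Signals were quantile scaled, so that the 4 arrays share one distribution, and those below a floor of 17.4 (the 50th percentile) were raised to it. A gene was read from its brightest probe set, which kept 12801 genes. A single probe set's signal was compared only with its own signal in other arrays, since probe sets differ in brightness. The label check came from Mmp2, with scaled signals of 40.9 in mdx/MMP-2-/- and 805 in mdx at 3 months, and 24.7 in mdx/MMP-2-/- and 985 in mdx at 1 month. Before scaling, the 2% trimmed mean was 124 in the mdx/MMP-2-/- array at 3 months and lay between 91.3 and 98.4 in the other 3 arrays. The 3'/5' signal ratio of Actb, which reflects RNA integrity and labelling, was 2.09 and 2.36 at 3 months (mdx/MMP-2-/- and mdx), and 1.05 and 1.19 at 1 month. The same ratio of Gapdh was 0.935 and 0.936 at 3 months, and 0.85 and 0.883 at 1 month. Both ratios were higher at 3 months, that of Gapdh by little, and their part in the age differences was not tested. In whole muscle, fewer cells that make collagen and less collagen RNA per cell cannot be told apart.

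The start regions of the genes are shown because the chains did not share one order of arrays by their brightest probe sets. By these, 4 of the 6 did, while Col3a1 and Col5a3 each had another. The dimmer probe set of Col3a1, 1427884_at, had the order of those 4. Any link between the start regions and the order of arrays was not tested. RefSeq windows on GRCm38.p6, reaching from 250 bases before to 50 bases after the start, matched 4 of the 6 genes. Col1a2 lies at chr6:4505368-4505667 (plus strand), Col3a1 at chr1:45311288-45311587 (plus strand), Col5a1 at chr2:27886175-27886474 (plus strand) and Col5a3 at chr9:20815018-20815317 (minus strand). Capitals mark 3 short words sought on both strands. The CCAAT box was sought as CCAAT, which reads ATTGG on the other strand. The GC box was sought as GGGCGG, which reads CCGCCC there. For the TATA box the word was TATAAA, which reads TTTATA there.
Col1a2: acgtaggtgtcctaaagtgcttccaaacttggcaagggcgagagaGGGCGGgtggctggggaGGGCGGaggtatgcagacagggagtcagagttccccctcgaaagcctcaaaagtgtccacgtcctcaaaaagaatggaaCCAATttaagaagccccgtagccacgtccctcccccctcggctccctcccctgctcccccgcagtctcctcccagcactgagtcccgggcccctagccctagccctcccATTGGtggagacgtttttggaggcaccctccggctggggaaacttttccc
Col3a1: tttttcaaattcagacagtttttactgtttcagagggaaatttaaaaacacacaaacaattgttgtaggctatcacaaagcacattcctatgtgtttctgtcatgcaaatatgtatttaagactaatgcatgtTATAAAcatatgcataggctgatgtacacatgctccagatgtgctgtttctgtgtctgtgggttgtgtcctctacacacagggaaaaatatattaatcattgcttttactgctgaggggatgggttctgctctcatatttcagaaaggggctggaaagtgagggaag
Col5a1: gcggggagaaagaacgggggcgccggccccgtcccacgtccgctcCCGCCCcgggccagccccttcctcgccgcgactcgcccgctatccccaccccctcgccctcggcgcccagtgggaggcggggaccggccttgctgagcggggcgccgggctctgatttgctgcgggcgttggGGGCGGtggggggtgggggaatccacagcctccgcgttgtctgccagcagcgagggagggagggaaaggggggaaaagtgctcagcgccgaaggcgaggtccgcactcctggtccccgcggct
Col5a3: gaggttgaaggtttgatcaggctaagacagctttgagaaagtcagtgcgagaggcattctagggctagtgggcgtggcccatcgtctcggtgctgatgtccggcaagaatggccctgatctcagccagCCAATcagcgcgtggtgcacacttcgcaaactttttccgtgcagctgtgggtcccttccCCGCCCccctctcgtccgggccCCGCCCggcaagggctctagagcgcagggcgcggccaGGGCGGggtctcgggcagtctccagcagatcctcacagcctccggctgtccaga

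No matches overlapped one another. Col1a2 had CCAAT letters 109 bases upstream of the start and again at the start itself, and GGGCGG at 205 and 188 bases upstream. Col3a1 had TATAAA 117 bases upstream and neither of the other words. Col5a1 held GGGCGG letters 205 and 73 bases upstream, and Col5a3 held CCAAT 122 bases upstream and GGGCGG letters 63, 41 and 4 bases upstream. Such words are common: of 32851 windows of this length, 37.4% held CCAAT, 35.7% GGGCGG and 13.6% TATAAA. The windows differed in base composition, with 37.7% G and C in Col3a1, 75% in Col5a1 and a median of 52.7% over all windows. The genes lie on different chromosomes except Col3a1 and Col5a2, which are neighbours on chromosome 1 with 0 annotated genes between them.

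Of the 14 probe sets, 13 exceeded the floor in all 4 arrays and 1 (1425984_at of Col5a3) in none of them. The fibrillar collagens were lower at 3 months than at 1 month in both genotypes, and for all but Col3a1 by more in mdx, where the type I chain Col1a1 was 2.37-fold and the type V chains Col5a1 and Col5a2 were 2.2-fold and 1.99-fold lower. At 3 months 5 of the 6 chains were higher in mdx/MMP-2-/- than in mdx, by 1.07-fold to 1.38-fold. At 1 month 4 of the 6 were lower in mdx/MMP-2-/-, by 1.03-fold to 1.18-fold. Col5a3 was higher in mdx/MMP-2-/- at both ages. Col3a1 and Col5a3 had the smallest age differences in mdx by their brightest probe sets, 1.17-fold and 1.22-fold lower. By its dimmer probe set Col3a1 was 1.56-fold lower in mdx and 1.19-fold lower in mdx/MMP-2-/-, so its place as an exception depends on the probe set.

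**Figure D1:**
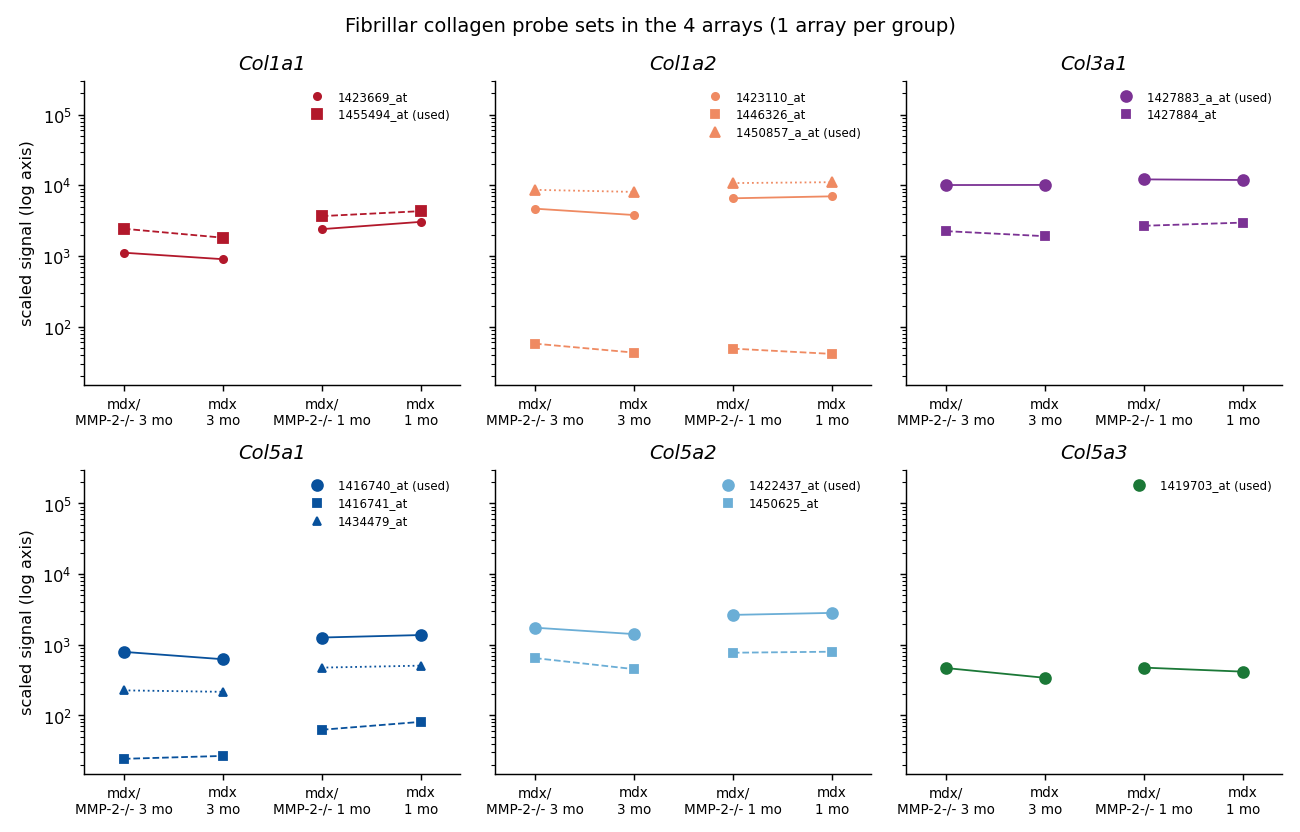
Scaled signal (log axis) of the 13 member probe sets above the floor, 1 point per array, with the genotypes of one age joined by a line and the probe set used for the gene drawn larger. Within each genotype the point at 3 months lies below that at 1 month for all probe sets but 1446326_at of Col1a2. For 1419703_at of Col5a3, mdx/MMP-2-/- at 3 months (469) lies above mdx at 1 month (417). The lines at 3 months run down towards mdx in 11 of 13 probe sets.

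Col1a1 encodes the alpha-1 chain of type I collagen. Its probe set 1455494_at gave 2439 in mdx/MMP-2-/- and 1823 in mdx at 3 months, and 3681 in mdx/MMP-2-/- and 4327 in mdx at 1 month. Its other probe set, 1423669_at, gave 1118 and 905 at 3 months and 2407 and 3052 at 1 month, in the same order of genotypes. Both placed the mdx array highest at 1 month and lowest at 3 months. By these probe sets the signal at 3 months was 1.51-fold and 2.15-fold lower in mdx/MMP-2-/-, and 2.37-fold and 3.37-fold lower in mdx.

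Col1a2 encodes the alpha-2 chain of the same molecule. Its brightest probe set, 1450857_a_at, gave 8668 in mdx/MMP-2-/- and 8099 in mdx at 3 months, and 10799 in mdx/MMP-2-/- and 11116 in mdx at 1 month. That probe set reached 72.0% of the highest signal on the arrays (15431). The dimmer 1423110_at gave 4693 and 3813 at 3 months, and 6577 and 7011 at 1 month, again in the same order. By it Col1a2 was 1.4-fold lower at 3 months in mdx/MMP-2-/- and 1.84-fold lower in mdx, against 1.25-fold and 1.37-fold by the brighter one. Its remaining probe set, 1446326_at, was faint (41.4 to 57.7) and slightly higher at 3 months in both genotypes.

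Col3a1 encodes the chain of type III collagen. Its brightest probe set, 1427883_a_at, reached 78.9% of the highest signal and hardly differed, with 10131 in mdx/MMP-2-/- and 10164 in mdx at 3 months, and 12183 in mdx/MMP-2-/- and 11937 in mdx at 1 month. The dimmer 1427884_at gave 2257 and 1914 at 3 months, and 2687 and 2979 at 1 month. That is the order seen for Col1a1, with a 1.19-fold lower signal at 3 months in mdx/MMP-2-/- and a 1.56-fold lower one in mdx. The genotype difference of Col3a1 therefore depends on which probe set is read.

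Col5a1, the alpha-1 chain of type V collagen, gave 795 in mdx/MMP-2-/- and 626 in mdx at 3 months by 1416740_at, and 1268 in mdx/MMP-2-/- and 1375 in mdx at 1 month. Its 1434479_at gave 227 and 216 at 3 months and 476 and 507 at 1 month. Its faint 1416741_at gave 24.4 and 26.8 at 3 months and 62.8 and 81.3 at 1 month. All 3 probe sets were at least 2-fold lower at 3 months in mdx, by 2.2-fold to 3.03-fold. They did not share the genotype difference at 3 months, which was 1.27-fold and 1.05-fold higher and 1.1-fold lower.

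Col5a2, the alpha-2 chain of type V, gave 1747 in mdx/MMP-2-/- and 1418 in mdx at 3 months by 1422437_at, and 2651 in mdx/MMP-2-/- and 2828 in mdx at 1 month. By 1450625_at it gave 649 and 453 at 3 months, and 773 and 799 at 1 month. Both probe sets were higher in mdx/MMP-2-/- at 3 months, by 1.23-fold and 1.43-fold. At 1 month the genotypes were within 1.07-fold of each other.

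Col5a3 encodes the alpha-3 chain, which enters type V molecules in fewer tissues. Its probe set 1419703_at gave 469 in mdx/MMP-2-/- and 341 in mdx at 3 months, and 476 in mdx/MMP-2-/- and 417 in mdx at 1 month. It was higher in mdx/MMP-2-/- at both ages, 1.38-fold and 1.14-fold. Between ages it was within 1.01-fold in mdx/MMP-2-/- and 1.22-fold lower at 3 months in mdx. In mdx/MMP-2-/- the sign of that difference turned with median scaling (log2 difference 0.26) and with unscaled signals (0.32).

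In mdx muscle 1 month is a time of active regeneration, and the age difference sets the later muscle against it. In mdx/MMP-2-/-, all 6 genes were lower at 3 months, where 45.7% of all genes were, with a median log2 difference of -0.46. Of these, 3 (Col1a1, Col5a1 and Col5a2) passed 1.5-fold, against 6.7% of all genes, and 0 passed 2-fold, against 1.22%. Among genes with a mean signal at or above 85.4 (the 75th percentile), as the collagens have, the shares were 5.19% and 0.763%. By probe sets 12 of 13 were lower (49% of 17466 probe sets above the floor in all arrays) and 6 of 13 passed 1.5-fold (8.16%). Past 2-fold were 3 of 13, beside the 1.22% of all genes. These were 1423669_at of Col1a1 (2.15-fold) and 1434479_at and 1416741_at of Col5a1 (2.1-fold and 2.58-fold), none of them the probe set used for its gene.

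In mdx, too, all 6 genes were lower at 3 months, where 47.7% of all genes were lower. The same 3 passed 1.5-fold, against 7.27% of all genes, and 2 passed 2-fold, against 1.55%. Among genes at or above 85.4 the shares were 4.91% and 0.933%. The median log2 difference of the 6 was -0.73, and that of all genes 0.0. Of all genes, 0.6% lay below Col1a1, 1.0% below Col5a1 and 1.6% below Col5a2. By probe sets, 12 of 13 were lower (48.8%), 9 of 13 passed 1.5-fold (7.52%) and 5 of 13 passed 2-fold (1.53%).

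The 2 age differences rest on separate arrays. Col1a1 had a log2 age difference of -0.59 in mdx/MMP-2-/- and -1.25 in mdx, Col5a1 of -0.67 and -1.14, Col5a2 of -0.6 and -1.0, and Col1a2 of -0.32 and -0.46. Col3a1 had -0.27 and -0.23 by its bright probe set, and -0.25 and -0.64 by the dimmer one. With cyclic loess the bright probe set of Col3a1 had -0.59 and -0.36. In that setting Col3a1 passed 1.5-fold lower in mdx/MMP-2-/- and Col5a2 (-0.57) did not. With median scaling the median of all genes in mdx/MMP-2-/- shifted by 0.19, that of the 6 was -0.29, and 0 of them were at least 1.5-fold lower, against 3.95% of all genes.

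**Figure D2:**
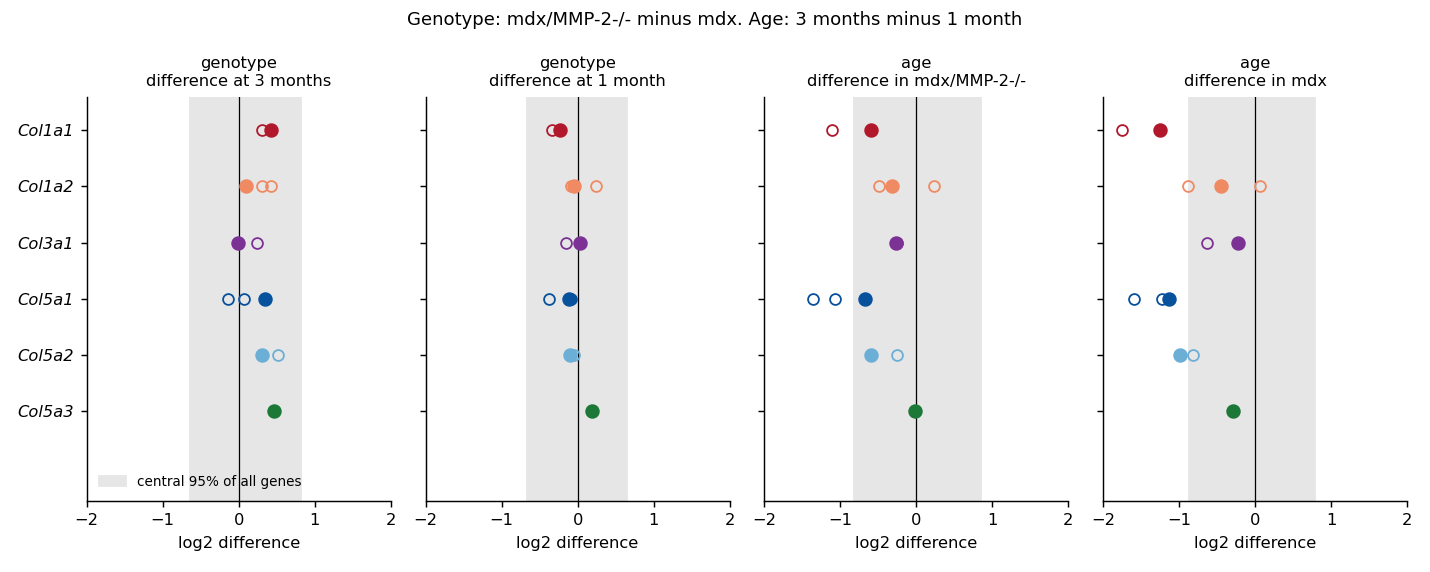
Log2 differences of the 6 genes in the 4 comparisons (filled points, probe set used for the gene, open points, other probe sets), with the central 95% of all genes in grey. Genotype differences lie inside the grey band for all 6 genes, while the age differences of Col1a1, Col5a1 and Col5a2 in mdx lie below it.

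The chains of one molecule had unequal age differences in these arrays. The log2 age difference of Col1a1 minus that of its partner Col1a2 was -0.28 in mdx/MMP-2-/- and -0.79 in mdx. The choice of probe set changes that gap: the dimmer Col1a2 probe set had -0.88 in mdx, against -1.25 and -1.75 for those of Col1a1. Col5a1 and Col5a2, the usual partners in type V, stayed within 0.07 of each other in mdx/MMP-2-/- and 0.14 in mdx by their brightest probe sets. This closeness depends on the probe sets: by the mean of all of them Col5a1 had -1.04 and Col5a2 -0.43 in mdx/MMP-2-/-, and Col5a1 -1.32 and Col5a2 -0.91 in mdx. Col5a3 lay 0.65 above Col5a1 in mdx/MMP-2-/- and 0.85 above it in mdx. No gap between chains could be tested with 1 array per group.

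The genotype differences set muscle without MMP-2 against muscle with it on the same mdx background. At 3 months 5 of the 6 genes, all but Col3a1, were higher in mdx/MMP-2-/-, where 47.6% of all genes were higher and 48.1% lower. None of the 6 passed 1.5-fold higher or lower, against 6.12% and 3.33% of all genes. The log2 differences were 0.46 for Col5a3, 0.42 for Col1a1, 0.35 for Col5a1, 0.3 for Col5a2, 0.1 for Col1a2 and -0.0047 for Col3a1. Their median was 0.32, and that of all genes 0.0. The central 95% of all genes ran from -0.64 to 0.82, so each of the 6 lay inside it, with Col5a3 above 90.3% and Col1a1 above 88.8% of genes. By probe sets 11 of 13 were higher, against 47.9% of all. Over 4309 genes with several probe sets, the median SD of this difference between probe sets of one gene was 0.19.

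As deposited, the mdx/MMP-2-/- array at 3 months was the brightest. With unscaled signals the median of all genes moved by 0.41, that of the 6 collagens was 0.74, and 4 of them were at least 1.5-fold higher, as were 30.0% of all genes. Col1a2 turned to -0.07 with median scaling, and Col3a1 to 0.19 with unscaled signals and to 0.24 by its dimmer probe set.

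At 1 month the genotype difference was small and ran the other way for 4 of the 6 genes. These were Col1a1 (-0.23), Col5a1 (-0.12), Col5a2 (-0.09) and Col1a2 (-0.04 on the log2 scale), where 48.3% of all genes were lower in mdx/MMP-2-/- and 46.8% higher. Col3a1 had 0.03 and Col5a3 0.19. None of the 6 passed 1.5-fold in either direction, against 3.52% of all genes higher and 3.56% lower. Their median was -0.07. By probe sets 10 of 13 were lower, against 50.3% of all. Col1a2 turned to 0.001 with cyclic loess and 0.04 with unscaled signals, and Col3a1 to -0.02 with median scaling and -0.15 by its dimmer probe set.

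Set together, 4 genes (Col1a1, Col1a2, Col5a1 and Col5a2) were lower in mdx/MMP-2-/- at 1 month and higher at 3 months, a pair of signs that 22.9% of all genes had. The same 4 shared one order of arrays, highest in mdx at 1 month, then mdx/MMP-2-/- at 1 month, mdx/MMP-2-/- at 3 months and lowest in mdx at 3 months, as did 5.41% of all genes. By probe sets 9 of 13 had this order, against 5.43% of all. The order was taken from these same signals and the 13 probe sets read the same 6 genes, so neither share is a test. The genotype difference at 3 months exceeded that at 1 month by 0.65 for Col1a1, 0.46 for Col5a1, 0.39 for Col5a2, 0.27 for Col5a3 and 0.14 for Col1a2, and was below it by 0.03 for Col3a1 (-0.03). In all, 5 of 6 genes were above 0, against 50.5% of all genes, and 12 of 13 probe sets, against 48.6%. No residual degree of freedom was left to test it.

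**Figure D3:**
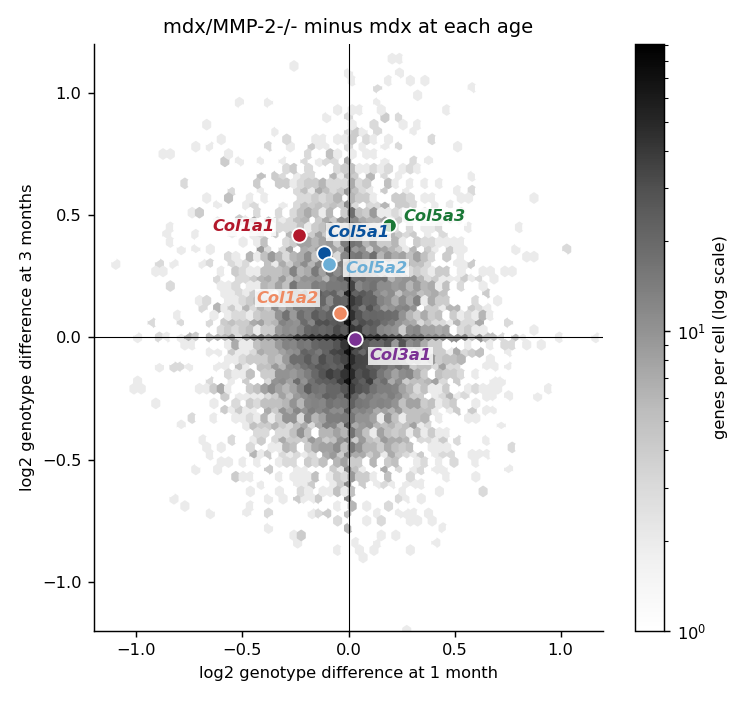
Log2 genotype difference (mdx/MMP-2-/- minus mdx) at 1 month on the x axis and at 3 months on the y axis, with the genes inside the plotted range as grey cells and the collagens as coloured points. Col1a1, Col5a1, Col5a2 and Col1a2 lie at the upper left, Col5a3 in the upper right, and Col3a1 next to the origin.

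An additive model of genotype and age over the 4 arrays leaves 1 residual degree of freedom and counts any genotype by age difference as error. In limma the age effect was -0.92 ± 0.21 (SE) for Col1a1, -0.91 ± 0.19 for Col5a1 and -0.8 ± 0.18 for Col5a2 on the log2 scale. Each had a Benjamini-Hochberg adjusted p of 0.288 in limma, lower at 3 months in both genotypes. No gene of the 12801 reached an adjusted p under 0.05 for age (0.0% called). At an unadjusted p under 0.05 the limma fit called 903 genes lower, 7.05%, among them those 3 collagens, and 853 higher, 6.66%. For genotype, none of the 12801 was called either, 323 (2.52%) were higher and 237 (1.85%) lower at an unadjusted p under 0.05, 0 of them collagens, and the collagens had adjusted limma p-values of 0.982 to 0.999 with effects of 0.01 to 0.32. With a variance prior that follows mean signal, limma called 130 genes for age, 2 of them collagens.

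Genes that serve collagen fibrils were counted by their step, first those that fold and modify the chains in the endoplasmic reticulum. Of 18 measured genes, 14 were higher in mdx/MMP-2-/- at 3 months, with a median log2 difference of 0.24, and 1 passed 1.5-fold. Of all genes 47.6% were higher in that comparison and 6.12% passed 1.5-fold higher. The same shares belong beside the 3-month genotype counts of the lists and markers below. Beside their age counts belong 45.7% of all genes lower at 3 months in mdx/MMP-2-/- and 47.7% in mdx. Past 1.5-fold lower, the shares were 6.7% and 7.27%. At 1 month 48.3% of all genes were lower in mdx/MMP-2-/- than in mdx. Crtap, part of the prolyl 3-hydroxylation complex, had 334 in mdx/MMP-2-/- and 253 in mdx. Serpinh1, the chaperone HSP47 that binds procollagen, had 1665 and 1344, and P4ha2, a prolyl 4-hydroxylase subunit, 127 and 97.2. Fkbp14 lay the other way, with 110 and 143. With age 14 of the 18 were lower at 3 months in mdx/MMP-2-/-, with a median of -0.09, which turned to 0.07 with median scaling. In mdx 16 of the 18 were lower at 3 months than at 1 month (median -0.47), among them Crtap (253 against 417), Plod3, a lysyl hydroxylase (145 against 217), P3h4 (78.7 against 116) and the isomerase Ppib (1035 against 1510).

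Enzymes that trim procollagen and cross-link fibrils had the highest median of the pathway lists at 3 months, 0.43, with 7 of 8 measured genes higher in mdx/MMP-2-/- and 2 past 1.5-fold. Lox, the lysyl oxidase that starts cross-linking, had 465 in mdx/MMP-2-/- and 219 in mdx, Tgm2, a transglutaminase, 1536 and 1006, Loxl1 789 and 573, and Loxl3 127 and 91.4. With age 3 of 8 were lower in mdx/MMP-2-/- (median 0.14), and all 8 in mdx (median -0.47). Lox was higher at 3 months in mdx/MMP-2-/- (465 against 403) and lower in mdx (219 against 467). Pcolce, which speeds removal of the C-propeptide, had 2958 at 3 months against 3235 at 1 month in mdx/MMP-2-/-, and 2237 against 3853 in mdx.

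Of 16 genes whose proteins sit on or beside the fibril, 11 were higher in mdx/MMP-2-/- at 3 months (median 0.19, 1 past 1.5-fold). Bgn, a small proteoglycan that binds collagen, had 2224 in mdx/MMP-2-/- and 1083 in mdx, fibronectin, Fn1, 1663 and 1203, and Thbs2 196 and 151. Kera, keratocan, lay the other way with 129 and 200. With age in mdx 13 of 16 were lower (median -0.56), among them Bgn (1083 against 2651), Kera (200 against 472), Col12a1 (215 against 503) and Postn, periostin (1694 against 3690). Dcn, decorin, was nearly level in all arrays at 6902 to 7912.

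Collagen breakdown genes and their inhibitors were higher in mdx/MMP-2-/- at 3 months for 11 of 14 genes (median 0.37), with 4 past 1.5-fold. The list holds the deleted Mmp2, which is one of the 3 lower genes and the only one past 1.5-fold lower. The membrane collagenase Mmp14, which also activates MMP-2, had 1158 in mdx/MMP-2-/- and 652 in mdx. Timp1 had 1018 and 285, and Mmp3 356 and 124. Of 9 receptors and uptake genes 6 were higher (median 0.18, 3 past 1.5-fold). The endocytic collagen receptor Mrc2 had 177 in mdx/MMP-2-/- and 111 in mdx, and Mrc1, which is also a macrophage marker, 855 and 443. The collagen-sensing kinases differed less, with 1047 and 877 for Ddr1 and 136 and 156 for Ddr2. Profibrotic signals were higher in 17 of 20 cases (median 0.2, 5 past 1.5-fold), among them Ccn2 (1909 and 984), Pdgfc (142 and 86.0), Il13ra1 (128 and 79.5) and Tgfb1 (87.4 and 56.4). These list medians also lay above the median of all genes at 3 months under median, cyclic loess and no scaling. Without scaling the median of all genes was itself 0.41, and that of the receptor and uptake list was only 0.06 above it.

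Of 5 other fibrillar collagens, which belong to cartilage or are minor chains, 3 were lower at 3 months in mdx/MMP-2-/- and 4 in mdx, with medians of -0.71 and -1.58. At 1 month 3 of the 5 were lower in mdx/MMP-2-/-, and Col11a2 (102 and 97.2) and Col24a1 (30.9 and 25.8) were higher. There Col2a1, the main cartilage collagen, had 29.8 in mdx/MMP-2-/- and 174 in mdx, and Col11a1 131 and 242. At 3 months Col2a1 was below the floor in both genotypes and Col11a1 had 80.1 and 80.8. The genes most like the collagens were sought among 7068 genes with a mean signal at or above 85.4, by the distance of their 4 centred log2 values to the median collagen profile. Nearest were Nos3, the endothelial nitric oxide synthase (0.04), Sparc, a collagen-binding matricellular protein (0.06), Rab34 (0.06), Col6a3, a chain of collagen VI (0.06), Olfml2b (0.07) and Sytl2 (0.08), over 4 arrays. The members themselves lay 0.2 (Col5a2) to 0.51 (Col5a3) from that profile. Sparc had 6588 in mdx/MMP-2-/- and 5621 in mdx at 3 months, and 8640 and 9388 at 1 month.

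Markers of the cells in the muscle were read beside the collagens. Fibroblast markers, from the main collagen-making cells, stood higher for 10 of 11 genes at 3 months in mdx/MMP-2-/- (median 0.19), among them Pdgfra (580 and 501), Thy1 (225 and 179) and Pi16 (195 and 144). Their summed signal was 18168 in mdx/MMP-2-/- and 16848 in mdx at 3 months, and 13437 and 14054 at 1 month, and Gsn supplied most of it. With age in mdx 9 of 11 were lower (median -0.18), and the list was split. Pi16 (-0.87), Thy1 (-0.84), Cd34 (-0.70) and Clec3b (-0.65) were past 1.5-fold lower, near the collagens' median of -0.73, while Pdgfra had -0.16 and Gsn 0.63. All 10 macrophage markers stood higher at 3 months in mdx/MMP-2-/-, 6 of them past 1.5-fold, and their signals summed to 7963 in mdx/MMP-2-/- and 5165 in mdx at 3 months, and 6903 and 7235 at 1 month. Neutrophil markers summed to 663 and 87.7 at 3 months and to 194 and 173 at 1 month, and 4 of 5 were past 1.5-fold higher at 3 months in mdx/MMP-2-/-. Regenerating muscle markers summed to 2312 and 1935 at 3 months and to 4123 and 5051 at 1 month, and all 7 were lower at 3 months in both genotypes.

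Tendon markers, whose cells also make type I collagen, summed to 4513 and 4288 at 3 months and 5155 and 5196 at 1 month, mostly through Thbs4 and Fmod. The more tendon-specific Tnmd had 400 and 349 at 3 months and 868 and 867 at 1 month, 2.17-fold lower at 3 months in mdx/MMP-2-/- and 2.49-fold in mdx. Kera was likewise 2.90-fold and 2.37-fold lower. With age 5 of the 8 tendon markers were lower and 3 higher in mdx/MMP-2-/-, and 6 were lower and 2 higher in mdx. Those higher at 3 months included Comp in mdx/MMP-2-/- (337 against 196) and Scx in mdx (36.2 against 23.7). Cartilage and bone markers summed to 194 and 158 at 3 months and to 206 and 526 at 1 month, with 4, 4, 2 and 0 of 8 genes at the floor in that order. Their sum was highest in mdx at 1 month, as were those of regenerating muscle markers and, by little, of tendon and of smooth muscle and myofibroblast markers. Col1a1, Col1a2, Col5a1 and Col5a2 were also highest in that array by their brightest probe sets. Their full order of arrays was that of 5.41% of all genes, and Col3a1 and Col5a3 were highest in mdx/MMP-2-/- at 1 month. Smooth muscle and myofibroblast markers summed to 16884 and 16786 at 3 months, and 16887 and 16990 at 1 month, mostly through Des, which muscle fibres also express, and Rgs5. Acta2, the myofibroblast actin, had 1967 and 2094 at 3 months and 2979 and 2987 at 1 month. At 3 months 4 of these 8 markers were higher and 4 lower in mdx/MMP-2-/-, with a median log2 difference of 0.009. Among the lower, Tagln had 322 in mdx/MMP-2-/- and 485 in mdx, and Myh11 111 and 155. Among the higher, Pdgfrb had 1199 and 982, and Cspg4 93.1 and 78.5. Endothelial markers summed to 1265 and 1346 at 3 months and 2161 and 1861 at 1 month, and of 5 skin markers Krt14 and Krt1 were at the floor in all arrays and Krt5 in 3 of 4. Krt10 was above it in all 4 (89.8 and 104 at 3 months, 112 and 140 at 1 month) and Lor in 3. The part of these cells in the collagen differences was not tested. The labelled tissue held the muscle fibre markers Acta1, Ckm, Tnnt3 and Myh4 at 12543 to 15431, near the top of the scale in all arrays.

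**Figure D4:**
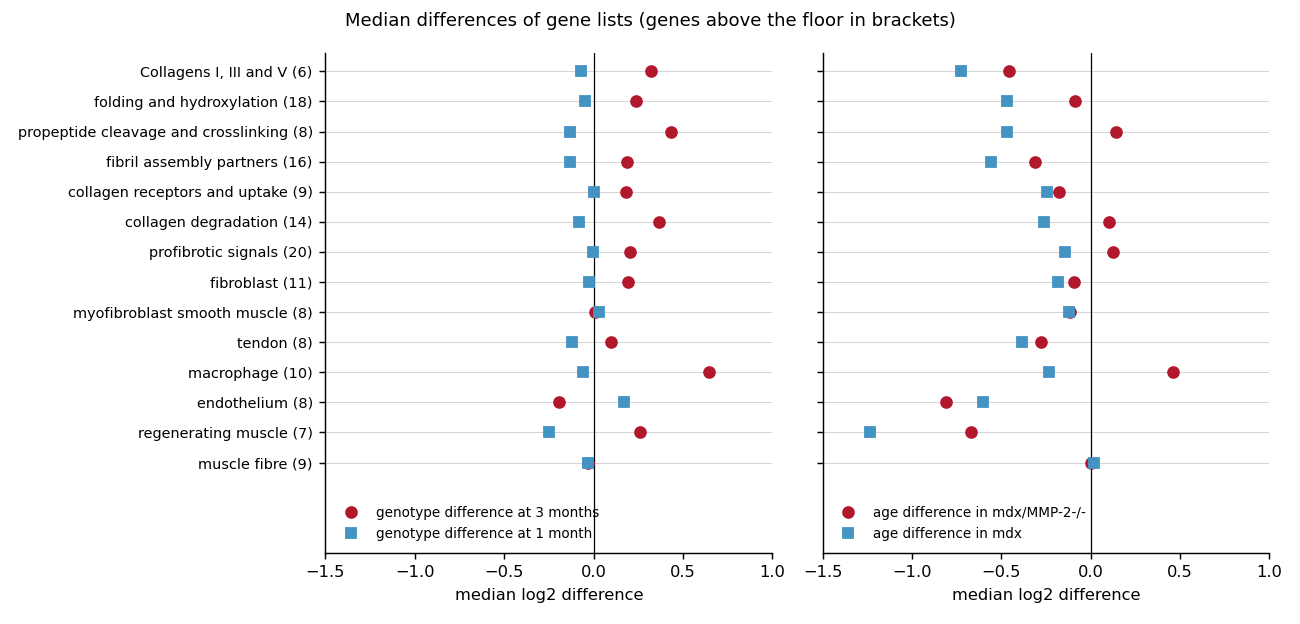
Median log2 difference of the collagens, the genes of collagen handling and cell type markers, for genotype (left) and age (right), with the number of genes above the floor in brackets. The collagens are at 0.32 for genotype at 3 months and -0.07 at 1 month, and at -0.46 in mdx/MMP-2-/- and -0.73 in mdx for age, and macrophage markers are farther right at 3 months.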

How the data were processed

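The authors deposited 1 linear intensity per probe set, summarised by MAS5 in Expression Console according to the submitters' processing notes. Their settings are not given in the sources used here. Of 45101 probe sets, 64 controls were dropped. Of the rest, 34945 carried 1 symbol in the platform annotation and 34741 of these were found in the RefSeq gene table with 0 changed names. Arrays were quantile normalized in limma 3.58.1 (R 4.3.3), floored at 17.4 and put on the log2 scale. Genes that never exceeded the floor were dropped. The additive model used lmFit and eBayes with Benjamini-Hochberg adjustment over 12801 genes. Its code was run on simulated data with additive changes larger than the collagens' age differences. That run held no genotype by age difference, so it does not test how well the model serves these data. Counts and medians used pandas 2.3.3 and numpy 2.4.6 (Python 3.11.15). Differences with 1 array per group have no test. Genes were counted past 1.5-fold and 2-fold, beside the share of all genes.

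Members, lists and thresholds were chosen with earlier results of these data known. Named genes were the members, Mmp2, up to 4 genes per list with the largest difference and a higher signal at or above 85.4, and the 6 genes nearest in pattern. Dcn, Ddr2, Col24a1 and the markers printed with signals were picked after their values were seen. Alternatives were median, cyclic loess and no scaling, a floor at the 40th or the 60th percentile, a variance prior that follows signal, a background of brighter genes only, a pseudocount of 4.36 without floor, the mean of all probe sets, and leaving out _s_at and _x_at probe sets. Reading genes without their brightest probe sets (highest signal above 0.5 of the array maximum) was added after seeing the data.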

Additional observations from a re-analysis of the deposited data

Results flagged for a closer look

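For 5 of the 6 collagens the genotype difference had opposite signs at 3 months and at 1 month, a difference that was not tested because each group had 1 array. Of all genes 22.9% were lower in mdx/MMP-2-/- at 1 month and higher at 3 months, the signs of Col1a1, Col1a2, Col5a1 and Col5a2. The share of genes with opposite signs in either direction was not counted. The log2 difference at 3 months minus that at 1 month was 0.65 for Col1a1, 0.46 for Col5a1, 0.39 for Col5a2, 0.14 for Col1a2 and -0.034 for Col3a1. For Col3a1 both differences were near 0 (-0.0047 at 3 months and 0.03 at 1 month), and its dimmer probe set had the signs of Col1a1, with 0.24 at 3 months and -0.15 at 1 month.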

How the results depend on the processing

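No paired analysis was possible because each group had 1 array. Leaving out the unscaled signals, the median log2 difference of the 6 collagens ran from 0.25 to 0.37 for genotype at 3 months, -0.23 to -0.05 at 1 month, -0.58 to -0.29 for age in mdx/MMP-2-/- and -0.94 to -0.63 for age in mdx. Unscaled signals gave 0.74 for genotype at 3 months, with 4 genes at least 1.5-fold higher and 0 lower, 0.67 for the genotype by age difference, and in mdx/MMP-2-/- 1 gene higher at 3 months and 0 at least 1.5-fold lower. Median scaling gave 2 genes lower in mdx/MMP-2-/- at 3 months and 1 higher at 1 month, and for age in mdx/MMP-2-/- 1 higher and 0 at least 1.5-fold lower. The mean of all probe sets left 0 genes lower in mdx/MMP-2-/- at 3 months. Without the brightest probe sets 0 were lower at 3 months, 1 was higher at 1 month, and 5 were at least 1.5-fold lower with age in mdx. That setting reads Col1a2 and Col3a1 from their dimmer probe sets. Signal over background limited 1425984_at of Col5a3, which gives no level. The variance prior that follows signal called 2 collagens for age. The cause of the scaling effects was not tested.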
